A study of Xenopus laevis with 18 samples.

Results

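The RNA of the soluble cytosol was compared between mature eggs and full-grown oocytes of the frog Xenopus laevis. The comparison set the 3 Egg_Cytosol libraries against the 3 Oocyte_Cytosol libraries, chosen by the developmental stage and cell fraction that the labels give, and these are 6 of the 18 libraries of the series. The egg libraries came from defolliculated stage VI oocytes that were matured in culture with 2 µM progesterone at 18 °C, and their labels give the stage as germinal vesicle breakdown (GVBD). The oocyte libraries came from defolliculated stage VI oocytes kept in the same medium without progesterone at 18 °C. Each library holds the cytosol of 4 pooled cells, and the eggs are oocytes matured in a dish, not laid eggs. The other 12 libraries, 3 in each group, hold the pellet and the endoplasmic reticulum (ER) of eggs and of oocytes. The study calls its replicates biological without saying which frogs or cultures they came from. The p-values therefore rest on the spread among these libraries alone, some of which may be technical.

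The full-grown Xenopus oocyte is arrested in the first meiotic prophase and carries a large store of maternal mRNA. Progesterone releases the arrest: the nuclear envelope breaks down, the cell passes to the second meiotic metaphase, and transcription stays silent until after fertilization. Changes of the maternal RNA at this step are therefore known to come about through polyadenylation, deadenylation, decay and movement between cell compartments. Many mRNAs with a cytoplasmic polyadenylation element (CPE) in their untranslated end, among them those of the cyclins, are masked in the oocyte and translated at maturation. Other RNAs are anchored in the vegetal cortex or in the germ plasm, where they later set the body axis and the germ line.

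Cytosol libraries held 27708411 to 37358436 estimated counts in eggs and 35391190 to 37863318 in oocytes. Over 19790 transcripts with a mean of at least 1 CPM (counts scaled to a common library total), replicates correlated at r = 0.9947 to 0.9966 of log2 CPM within eggs and 0.9952 to 0.9965 within oocytes, against 0.9699 to 0.9747 between the stages. All pairs of replicates differed by more than counting error, the smallest chi-square divided by its degrees of freedom being 3.81. Transcripts of 23 listed oocyte markers summed to 1682 to 1773 CPM in egg cytosol and 1455 to 1568 CPM in oocyte cytosol. Of 48 tested transcripts on a list of follicle cell markers, 23 stayed under 1 CPM in all 6 libraries, among them fshr.L, foxl2.S and cyp11a1.S, and inhbb.S was at 0 in all 6. The 48 summed to 858.2 to 887.1 CPM in egg cytosol and 925 to 958.2 CPM in oocyte cytosol, with 6 called higher and 7 lower. By at least 2-fold, 3 were called higher and 5 lower. Lower members include cyp17a1.L at -1.44 ± 0.08, kit.L at -2.12 ± 0.28 and kit.S at -1.07 ± 0.09 log2 fold change. Among the higher ones was col4a1.L at 1.39 ± 0.43, with 0.505 CPM in egg cytosol and 0.191 CPM in oocyte cytosol. Without keratins, cyp17a1 and kit, the other 39 summed to 84.2 to 90.6 CPM in egg cytosol and 75.2 to 83.7 CPM in oocyte cytosol. Whether the RNA of the members left out came from follicle cells or from the oocytes was not tested. The 9 tested blood, immune and liver markers summed to 6.53 to 7.35 CPM in egg cytosol and 6.17 to 7.18 CPM in oocyte cytosol.

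How much RNA the cytosol held in all was asked with the spike-in RNAs added before extraction. The authors' attomolar (aM) values, which rest on these spike-ins, summed to 35355, 42533 and 41314 aM in egg cytosol and 31877, 33974 and 29308 aM in oocyte cytosol. The ratio of the means was 1.253 (exact two-sided permutation p = 0.1, the smallest that 3 against 3 can give), and the groups did not overlap. For the median transcript the ratio was 1.467. Each library pools 4 cells, so a difference in every cell and a larger one in only some cells cannot be told apart. By TPM over spike-in TPM the ratio was 1.13 with overlapping libraries (exact p = 0.5), and 1.065 without the spike-in egfp (exact p = 0.6), which made up 85.1 to 88.6% of spike-in counts. The gene tests use TMM scaling, in which the typical transcript is set to no change. Against that scale, spike-in scaling raises the median log2 fold change by 0.26 and the attomolar values raise it by 0.5, so "higher" and "lower" mean relative to the typical cytosol transcript. Changes in the ER and pellet are read in the same way, each relative to the typical transcript of its own fraction.

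Of 25938 transcripts tested, 4780 were higher in egg than in oocyte cytosol (18.4%) and 4818 were lower (18.6%), 37% of all, by edgeR's quasi-likelihood test at a Benjamini-Hochberg adjusted p under 0.05. These shares of all transcripts are the background for each count of list members that this test called in the cytosol. Most changes were small: the median log2 fold change was -0.0149 and the quartiles were -0.27 and 0.246. Changes of at least 2-fold were called for 580 transcripts higher (2.24%) and 670 lower (2.58%). Scaled by spike-ins, 2629 were higher (10.1%) and 636 lower (2.45%). Attomolar values tested with limma gave 5485 higher (21.1%) and 328 lower (1.26%), so the split depends on the scale. The authors' deposited table has 2920 transcripts with an egg over oocyte cytosol ratio above 1 and a q-value under 0.05 (7.7% of those with a q-value), and 345 with a ratio under 1 (0.91%).

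The plot of levels in each library shows the 12 highest and the 12 lowest log2 fold changes of called transcripts that have a gene symbol, average at least 10 CPM and do not overlap between the stages. Lack of overlap was common: of all 25938 transcripts tested, 6199 lay higher and 6526 lower in egg cytosol without overlap. All 24 in the plot kept their direction and stayed called under every alternative tried. In the authors' deposited table, which rests on the same libraries, all 24 had a ratio of the same direction with a q-value under 0.05.

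**Figure D1:**
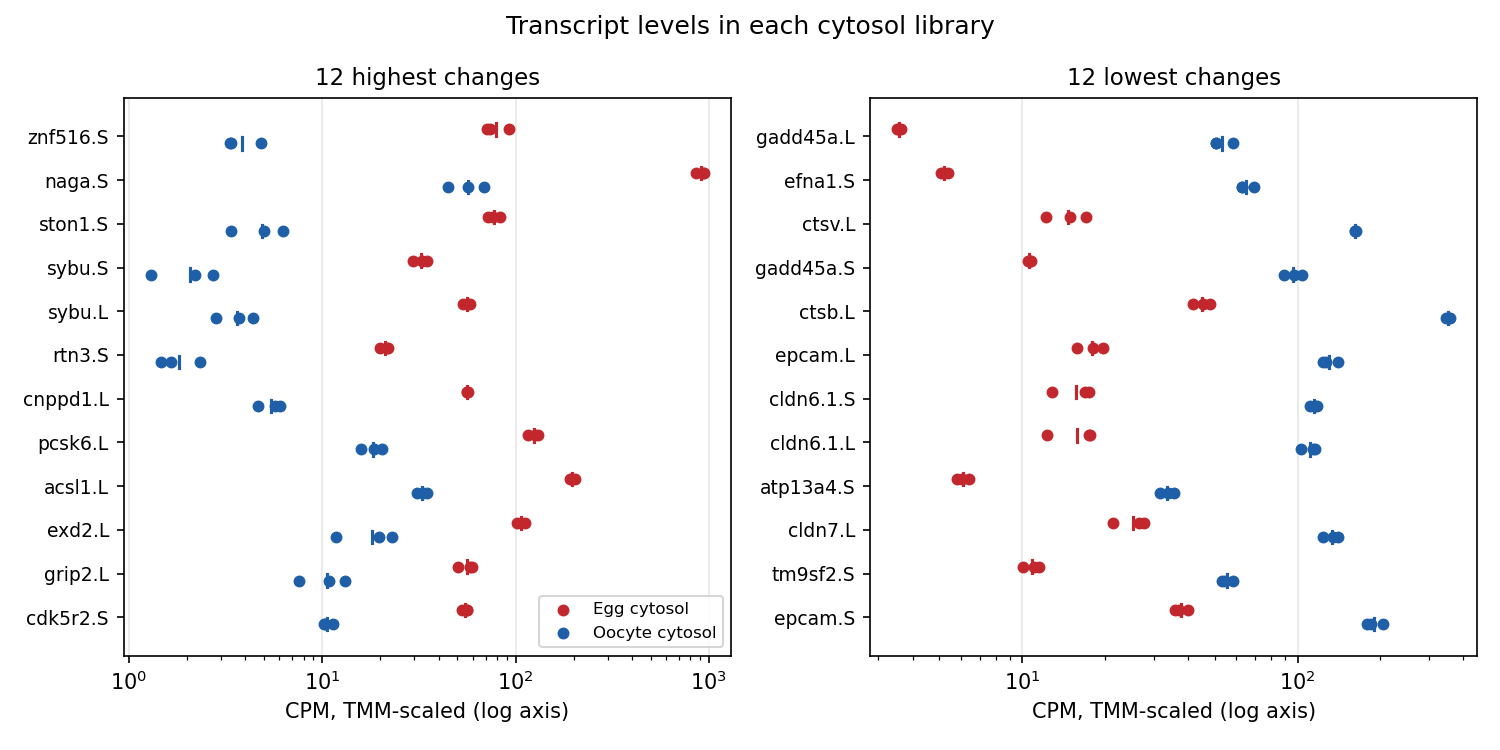
Level of each of the 24 transcripts with the most extreme changes in every cytosol library, in CPM on a log axis. Points are the 3 egg (red) and 3 oocyte (blue) libraries and ticks are their means. The naga.S points lie at 856, 941 and 932 CPM in egg cytosol and 69.0, 44.6 and 56.5 CPM in oocyte cytosol. Lack of overlap between the stages was a condition for choosing the 24.

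Of the 12 highest transcripts, 9 carry a vegetal or extremely vegetal class in the authors' deposited table. The naga.S transcript (gene15550), which encodes the lysosomal enzyme alpha-N-acetylgalactosaminidase, stood at 856, 941 and 932 CPM in egg cytosol, against 69.0, 44.6 and 56.5 CPM in oocyte cytosol. Every egg library lay far above every oocyte library, with a log2 fold change of 4.0 ± 0.17 (adjusted p = 5.7e-14). The zinc finger mRNA znf516.S had the highest value of the 12, 4.36 ± 0.30, with 71.5, 92.6 and 73.3 CPM in egg cytosol and 4.80, 3.33 and 3.38 CPM in oocyte cytosol. Both homeologs of syntabulin, a kinesin adaptor that links cargo to microtubule motors, were also among the 12. Levels of sybu.L were 53.5, 58.2 and 56.7 CPM in egg cytosol and 4.39, 2.83 and 3.71 CPM in oocyte cytosol (log2 3.94 ± 0.12), and those of sybu.S gave 3.96 ± 0.17. The others were ston1.S at 3.99, which encodes an endocytic adaptor, rtn3.S at 3.54, an ER-shaping reticulon, cnppd1.L at 3.36, pcsk6.L at 2.77, a proprotein convertase, acsl1.L at 2.57, a fatty acid CoA ligase, grip2.L at 2.41, a germ plasm scaffold protein, and cdk5r2.S at 2.37, a Cdk5 activator.

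Where these RNAs were gained, the pellet lost them. The pellet change from oocyte to egg was called lower for 11 of the 12 (21.4% of all transcripts were), between -1.80 for pcsk6.L and -0.73 for znf516.S. The ER change was called higher for the same 11 (12.4% of all). The cytosol and pellet changes differed for all 12 in the interaction test, by 5.71 ± 0.21 on the log2 scale for sybu.S (adjusted p = 7.7e-15). As the 12 were chosen by their cytosol change, which that test contains, this count follows in part from the choice. The exception in pellet and ER was exd2.L, an exonuclease mRNA. It had 107, 102 and 111 CPM in egg cytosol and 22.9, 11.8 and 19.6 CPM in oocyte cytosol. Its cytosol change was 2.56 ± 0.14, while that of the ER was -0.37 and that of the pellet -0.30 (adjusted p = 0.052), and the cytosol differed from both.

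**Figure D2:**
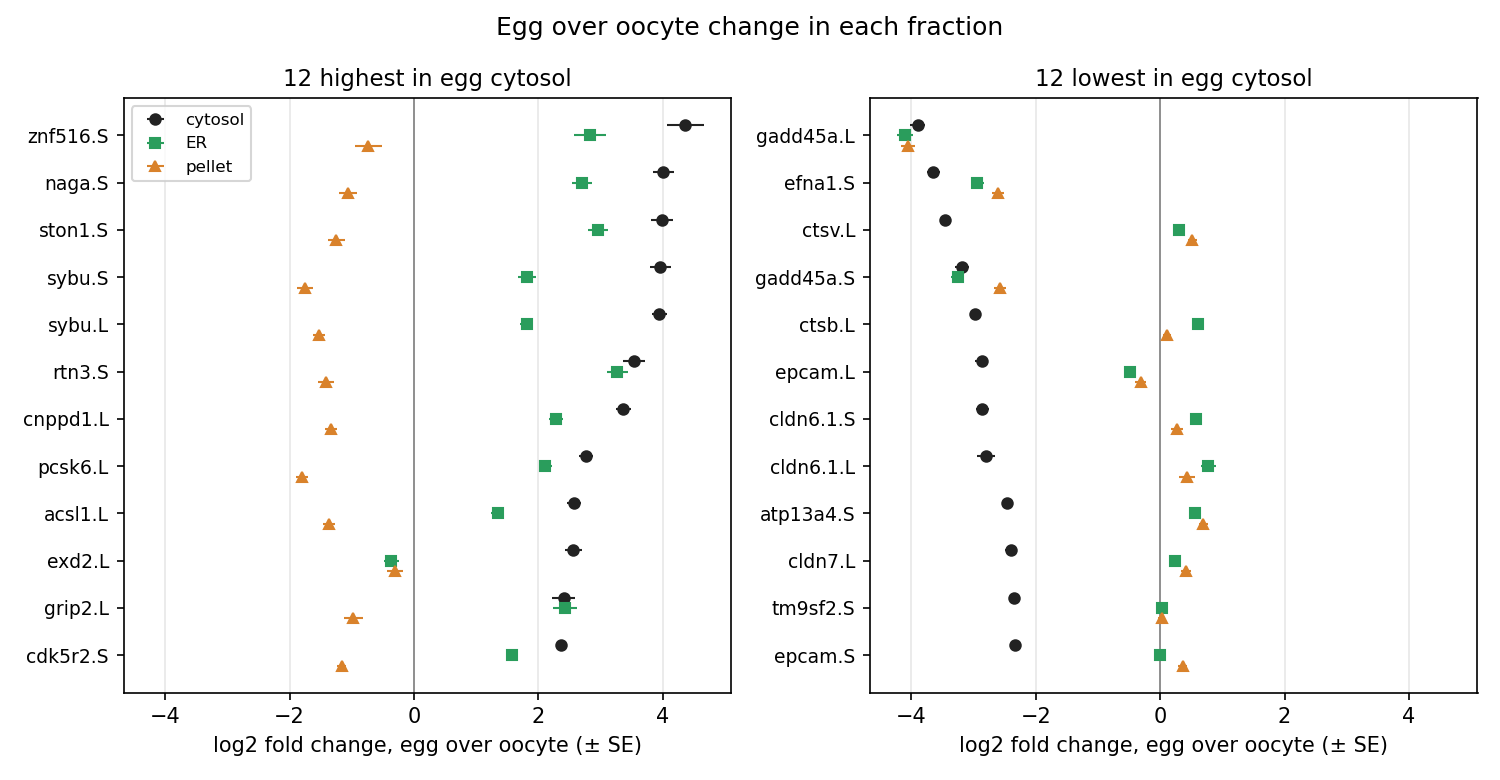
Log2 fold change of egg over oocyte in the cytosol (circles), the ER (squares) and the pellet (triangles) for the same 24 transcripts, with standard errors, each from the 3 egg and 3 oocyte libraries of that fraction. Relative to the typical transcript, pellet values of the highest 12 lie below 0, whereas of the lowest 12 only gadd45a.L, gadd45a.S and efna1.S fell by at least 2-fold in all 3 fractions.

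The vegetal and germ plasm list, with 53 transcripts tested, had 36 higher and 5 lower in egg cytosol, with a median log2 change of 0.795. In the pellet 7 were higher (22.3% of all transcripts were) and 36 lower (21.4% of all), and in the ER 32 were higher (12.4% of all) and 6 lower (16.1% of all). The cytosol change exceeded the pellet change for 39 (23.4% of all) and fell short of it for 5 (23.7% of all). By the classes in the authors' deposited table, all 26 extremely vegetal transcripts were higher in egg cytosol, with a median of 1.91, and 25 were lower in the egg pellet. Of 134 vegetal transcripts 118 were higher and 3 lower, with a median of 0.933, and 127 were lower in the pellet. The column of classes is headed with a citation, Sindelka et al., and the labels do not say how the classes were assigned. Lists and classes overlap. In the authors' deposited table of proportions, which gives each fraction's percent of a transcript's total, the 26 extremely vegetal transcripts averaged 58.9 ± 7.04% in egg cytosol and 16.8 ± 1.92% in oocyte cytosol (SD, n = 3 each). For the 10723 transcripts of the animal class these shares were 67.2 ± 4.23% in egg cytosol and 52.6 ± 3.44% in oocyte cytosol. The ER shares of the 53 list transcripts averaged 20.8 ± 3.97% in eggs and 26.6 ± 3.35% in oocytes. Those of the 26 extremely vegetal transcripts averaged 18.2 ± 3.64% in eggs and 16 ± 4.95% in oocytes. The higher calls in the ER are thus relative to the typical ER transcript.

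Axis determinants and germ line factors were called higher with different sizes of change. The mRNA of Wnt11b, the ligand that starts dorsal axis formation, had 57.2, 61.1 and 62.4 CPM in egg cytosol and 16.9, 11.4 and 14.6 CPM in oocyte cytosol for wnt11b.L (log2 2.07 ± 0.13). Velo1, a germ plasm and Balbiani body protein, had 273, 302 and 264 CPM in egg cytosol and 66.9, 67.2 and 62.5 CPM in oocyte cytosol for velo1.L (log2 2.09 ± 0.09). The ubiquitin ligase mRNAs trim36.L and trim36.S, needed for cortical rotation, changed by 1.26 ± 0.11 and 1.31 ± 0.11. Germ cell RNA-binding proteins included dazl.L at 2.10 ± 0.21, dnd1.L at 1.62 ± 0.12 and nanos1.L at 1.81 ± 0.19, the last at only 7.32 CPM in egg cytosol and 2.09 CPM in oocyte cytosol on average. The germ plasm helicase ddx25.L was at 1.00 ± 0.18. The endoderm transcription factor vegt was at 0.64 ± 0.06 for vegt.S and 0.44 ± 0.09 for vegt.L, and both homeologs fell in the pellet, with -0.96 and -0.72. The Vg1 ligand is listed as gdf1.S in 4 tested transcripts, whose single values are uncertain because reads may be split among them, and these ranged from 1.72 to 1.85. Not all list members rose: dand5.L, a secreted Nodal and BMP antagonist, changed by -0.96 ± 0.06 and mov10l1.L, a piRNA helicase, stood at -0.78 ± 0.09. Both were higher in the egg pellet, at 0.92 and 0.22.

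The transcripts lower in egg cytosol are described in 3 groups that overlap, drawn after their values were seen, by what the ER and pellet did. Of the 670 transcripts lower by at least 2-fold, 88 (13.1%) were also lower in ER and pellet, 311 (46.4%) were higher in the pellet, and 377 (56.3%) were lower in neither ER nor pellet. The same shares over all transcripts tested were 3.79%, 22.3% and 66.3%.

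The first group was lower in all 3 fractions. The stress gene gadd45a, whose protein acts in growth arrest and DNA repair, had 3.51, 3.53 and 3.63 CPM for gadd45a.L in egg cytosol, against 50.7, 58.4 and 50.4 CPM in oocyte cytosol. Its change of -3.90 ± 0.12 in the cytosol (adjusted p = 8.0e-16) lay beside ER and pellet changes of -4.10 and -4.05, and neither difference between fractions was called. The S homeolog gadd45a.S changed by -3.18 ± 0.11. The mRNA of the membrane-anchored ligand ephrin A1, efna1.S, had 5.19, 5.06 and 5.37 CPM in egg cytosol and 63.0, 69.7 and 62.9 CPM in oocyte cytosol, with cytosol, ER and pellet changes of -3.64 ± 0.10, -2.94 and -2.60. Among stress and immediate early genes, 10 of 94 were higher (10.6%) and 29 lower (30.9%), against 18.4% and 18.6% of all. Their median of -0.225 turns to 0.0317 with spike-in scaling (7 higher and 12 lower) and 0.244 on attomolar values (9 and 5). Members that fell include txnip.L, a thioredoxin inhibitor, at -1.66 ± 0.13, the transcription factor nr4a1.L at -1.14 ± 0.13 and ier2.L at -1.46 ± 0.10, all of which were also lower in ER and pellet. A few rose, among them klf6.L, a zinc finger factor, at 0.73 ± 0.09 and the pseudokinase trib1.L at 0.83 ± 0.11.

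The second group was lower in the cytosol by much more than in ER or pellet, and its named members encode lysosomal, membrane or secreted proteins. Several members, such as ctsv.L and fn1.S, were also higher in the pellet, whereas ctsb.L was not, so the group overlaps the third. It includes the mRNAs of cathepsins B and V, which are lysosomal proteases. Not all cathepsins were lower: of 15 transcripts tested, 6 were lower (18.6% of all transcripts were) and 3 higher (18.4% of all). The 3 were ctsc.L at 0.98 ± 0.07, ctsa.L at 0.90 ± 0.09 and ctsd.S at 0.54 ± 0.06. For ctsb.L there were 48.3, 41.5 and 45.4 CPM in egg cytosol and 354, 347 and 358 CPM in oocyte cytosol, a change of -2.97 ± 0.07 (adjusted p = 3.3e-17). Its ER level was higher by 0.61 ± 0.06 and its pellet change was 0.10 ± 0.06, which was not called, and the cytosol change lay -3.58 ± 0.09 from the ER change on the log2 scale. For ctsv.L there were 17.0, 12.2 and 14.9 CPM in egg cytosol and 162, 163 and 161 CPM in oocyte cytosol, with a cytosol change of -3.46 ± 0.08 beside ER and pellet changes of 0.31 and 0.52. Their S homeologs changed by -2.20 ± 0.06 for ctsb.S and -2.18 ± 0.09 for ctsv.S. Both were higher in the pellet, at 0.62 and 0.93, while in the ER ctsb.S was higher at 0.62 and ctsv.S lower at -0.28.

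Junction and adhesion mRNAs were part of it. The claudins build tight junctions: cldn6.1.S had 17.4, 12.8 and 16.9 CPM in egg cytosol and 116, 117 and 111 CPM in oocyte cytosol, and changed by -2.86 ± 0.10 in the cytosol but 0.58 in the ER. Its homeolog cldn6.1.L was at -2.80 ± 0.14 and cldn7.L at -2.40 ± 0.09. Of 14 claudin transcripts tested 8 were lower (18.6% of all transcripts were) and 1 was higher (18.4% of all), cldn5.L at 1.47 ± 0.38 with 1.72 CPM in egg cytosol and 0.642 CPM in oocyte cytosol. The 7 with a mean of at least 10 CPM were all among the lower ones, from cldn6.1.S at -2.86 to cldn12.L at -0.21, a family chosen after these values were seen. Just under that level, cldn10.L was not called at 0.04 ± 0.10, with 9.17 CPM in egg cytosol and 8.93 CPM in oocyte cytosol. The share of 18.6% is over all transcripts, not over those of at least 10 CPM. The adhesion protein mRNA epcam.L had 19.7, 18.0 and 15.9 CPM in egg cytosol and 127, 140.3 and 124 CPM in oocyte cytosol (log2 -2.87 ± 0.10), with ER and pellet changes of -0.48 ± 0.09 and -0.31 ± 0.09, and epcam.S changed by -2.33 ± 0.08. Fibronectin mRNA fn1.S had 162, 151 and 152 CPM in egg cytosol and 701, 669 and 730.0 CPM in oocyte cytosol, with -2.18 ± 0.07 in the cytosol and 1.21 ± 0.07 in the pellet. Its receptor subunit itga5.L changed by -1.77 ± 0.06, and the Eph receptor ephb3.L by -1.73 ± 0.07. The ER stress kinase PERK, encoded by eif2ak3.S, had 71.7, 60.8 and 64.6 CPM in egg cytosol and 304, 314 and 322 CPM in oocyte cytosol (log2 -2.25 ± 0.06), while its ER change was 0.53 and its pellet change 1.09. The remaining lowest transcripts, the P-type ATPase atp13a4.S at -2.46 ± 0.08 and the Golgi and endosome protein tm9sf2.S at -2.35 ± 0.07, also differed from both other fractions.

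Their lists as a whole moved less. Membrane receptors and adhesion proteins had 20 of 140 transcripts higher (14.3%) and 32 lower (22.9%), against 18.4% and 18.6% of all. Their median was -0.0195. The members with the smallest adjusted p among those that rose were efnb1.L, an ephrin, at 1.79 ± 0.10 and the FGF receptor fgfr2.L at 1.73 ± 0.09. Both are of the deposited vegetal class. Secreted ligands and matrix proteins had 22 of 93 higher (23.7%) and 23 lower (24.7%), with a median of -0.0717. Both medians turn positive with spike-in scaling (0.248, with 12 higher and 10 lower, and 0.194, with 17 and 11) and on attomolar values (0.45, with 26 and 6, and 0.346, with 27 and 8). The cytosol change fell short of the ER change for 41 of the 140 and 22 of the 93 (12.4% of all), and exceeded it for 15 and 12 (14.7% of all), a split that turns on the scale as shown for all transcripts under the opposite changes of cytosol and pellet. Lysosomal enzymes and V-ATPase subunits had 34 of 75 higher and 17 lower, with a median of 0.196, and 29 and 7 on attomolar values. Within that list the proton pump subunit atp6v1a.L was at 1.52 ± 0.06, beside naga.S, while the lysosomal membrane proteins mcoln1.L and lamp1.L were at -1.30 ± 0.06 and -1.24 ± 0.07. Proteins of ER folding and translocation had 45 of 124 higher and 28 lower, with a median of 0.064, but 17 and 2 with spike-in scaling and 29 and 1 on attomolar values. Their highest member was the translocon-associated ssr1.L, at 54.9, 50.2 and 51.4 CPM in egg cytosol and 13.1, 13.9 and 12.2 CPM in oocyte cytosol (log2 2.00 ± 0.09), with -0.24 in the ER and 0.064 in the pellet, which was not called.

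The third group was lower in the cytosol and higher in the pellet, and it held many mRNAs of meiosis and the cell cycle. The higher pellet level was not particular to them, as several members of the second group shared it. Of 37 transcripts of mRNAs known from Xenopus or mouse for CPE-driven polyadenylation at maturation, 3 were higher and 31 lower in egg cytosol, with a median of -0.762. On attomolar values the median was -0.445 with 3 higher and 10 lower, and with spike-in scaling -0.494 with 2 and 13. In the ER 2 were higher and 30 lower, against 12.4% and 16.1% of all transcripts, and in the pellet 31 were higher and 3 lower, against 22.3% and 21.4%. The cytosol change fell short of the pellet change for 30 of the 37 (23.7% of all) and exceeded it for 3 (23.4%), and it fell short of the ER change for 16 (12.4%) and exceeded it for 7 (14.7%). The labels do not say whether poly(A) RNA was selected after ribosomal RNA depletion, and if it was, tail length and RNA level cannot be told apart for these mRNAs. Their mean share in the authors' deposited proportions was 56.6 ± 4.54% in egg cytosol and 54.4 ± 3.84% in oocyte cytosol, 17.7 ± 4.13% in egg ER and 32.8 ± 3.85% in oocyte ER, and 25.8 ± 8.67% in egg pellet and 12.9 ± 3.43% in oocyte pellet (SD, n = 3 each).

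Cyclin A, B1 and B2 mRNAs lay below the median of the list, as did ccnb5.L at -0.79 ± 0.11. Cyclin E lay above it, at -0.65 ± 0.08 for ccne1.S and -0.22 ± 0.07 for ccne1.L. Levels of ccna1.L, the maternal A-type cyclin, were 404, 367 and 418 CPM in egg cytosol and 951, 898 and 951 CPM in oocyte cytosol, a change of -1.24 ± 0.09, beside ER and pellet changes of -0.37 and 1.46 ± 0.09. For ccnb1.L, a mitotic B-type cyclin, they were 165, 135 and 186 CPM in egg cytosol and 415, 382 and 414 CPM in oocyte cytosol, a change of -1.31 ± 0.12, and its pellet change of 0.25 was not called. For both, every egg library lay below every oocyte library, as for 6526 of all 25938 transcripts, and egg replicate 2 was the lowest. The lowest members were ccnb1.2.S at -1.53 ± 0.12 and ccnb1.2.L at -1.50 ± 0.12, and the smallest adjusted p-values were those of kif11.L, a spindle kinesin, at -0.93 ± 0.06, and fbxo43.S, the meiotic APC inhibitor Emi2, at -1.41 ± 0.10. The Mos kinase mRNA mos.L, translated at maturation, had 292, 277 and 302 CPM in egg cytosol and 354, 358 and 339.7 CPM in oocyte cytosol (log2 -0.27 ± 0.05, but 0.09 on attomolar values). Aurora A kinase was on the other side: aurka.S had 137, 129 and 151 CPM in egg cytosol and 85.0, 86.5 and 86.7 CPM in oocyte cytosol (log2 0.69 ± 0.09), though its ER change was -1.45 ± 0.09, and the aurka.L value of 0.16 ± 0.08 was not called. Beside aurka.S and dazl.L, cdk2.L was the other transcript of the list called higher, at 0.40 ± 0.05, whereas its homeolog cdk2.S was lower at -0.36 ± 0.05.

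The wider meiosis and cell cycle list had 23 of 130 higher (17.7%) and 69 lower (53.1%), against 18.4% and 18.6% of all. Its median of -0.209 turns to 0.0533 with spike-in scaling (12 higher and 22 lower) and 0.18 on attomolar values (15 and 14). Its pellet counts were 74 higher and 31 lower, against 22.3% and 21.4% of all. Its lowest members, incenp.S and smc3.S, serve chromosome segregation: incenp.S, the inner centromere protein, had 157, 144 and 154 CPM in egg cytosol and 469, 491 and 465 CPM in oocyte cytosol (log2 -1.64 ± 0.09), and the cohesin subunit smc3.S changed by -1.59 ± 0.07. Among those that rose were the kinase map2k1.L at 0.76 ± 0.08 and spdyc.S, a CDK activator of the Speedy family, at 1.13 ± 0.08. Cdk1 itself was at 0.27 ± 0.05 for cdk1.L and 0.50 ± 0.06 for cdk1.S.

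The largest losses in CPM included the mRNAs of the maintenance DNA methyltransferase, condensin and a histone. The dnmt1.L transcript had 312, 232 and 320.4 CPM in egg cytosol and 834, 822 and 871 CPM in oocyte cytosol, a change of -1.55 ± 0.11, and dnmt1.S changed by -1.71 ± 0.11. Their falls in the ER were -2.18 ± 0.12 and -2.36 ± 0.12, larger than in the cytosol by the interaction test, and both were higher in the pellet, at 0.57 and 0.62. The condensin subunit ncapd2.S had 291, 213 and 304 CPM in egg cytosol and 968, 969 and 1067 CPM in oocyte cytosol (log2 -1.90 ± 0.10), and the spindle protein hmmr.L changed by -1.89 ± 0.07, with 1.43 in the pellet. Egg replicate 2 was again the lowest egg library for dnmt1.L, dnmt1.S and ncapd2.S. The DNA methylation and chromatin list that holds dnmt1 had 2 of 20 higher and 7 lower, with a median of -0.149 that turns to 0.107 with spike-in scaling (0 higher and 3 lower) and 0.396 on attomolar values (3 and 2). Histone and histone-storage mRNAs had 7 of 35 higher and 17 lower, with a median of -0.281 that turns to 0.191 on attomolar values. None of the 17 lower calls was kept on the other scales, which gave 6 higher and 0 lower with spike-in scaling and 7 and 0 on attomolar values. The variant histone transcript h2afx.L (gene13554) had 2158, 2174 and 2187 CPM in egg cytosol and 4192, 3737 and 3716 CPM in oocyte cytosol (log2 -0.84 ± 0.10), with 1.62 in the pellet. The 7 members that rose were no histones but encode histone chaperones and assembly factors, a histone acetyltransferase (hat1.S) and a binding protein, with asf1b.L at 0.83 ± 0.06 and slbp.S, the histone stem-loop binding protein, at 0.65 ± 0.06. The more abundant homeolog slbp.L was called lower at -0.16 ± 0.06, with means of 464 CPM in egg cytosol and 519 CPM in oocyte cytosol. Histone genes have many near-identical copies, so single values are uncertain.

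**Figure D3:**
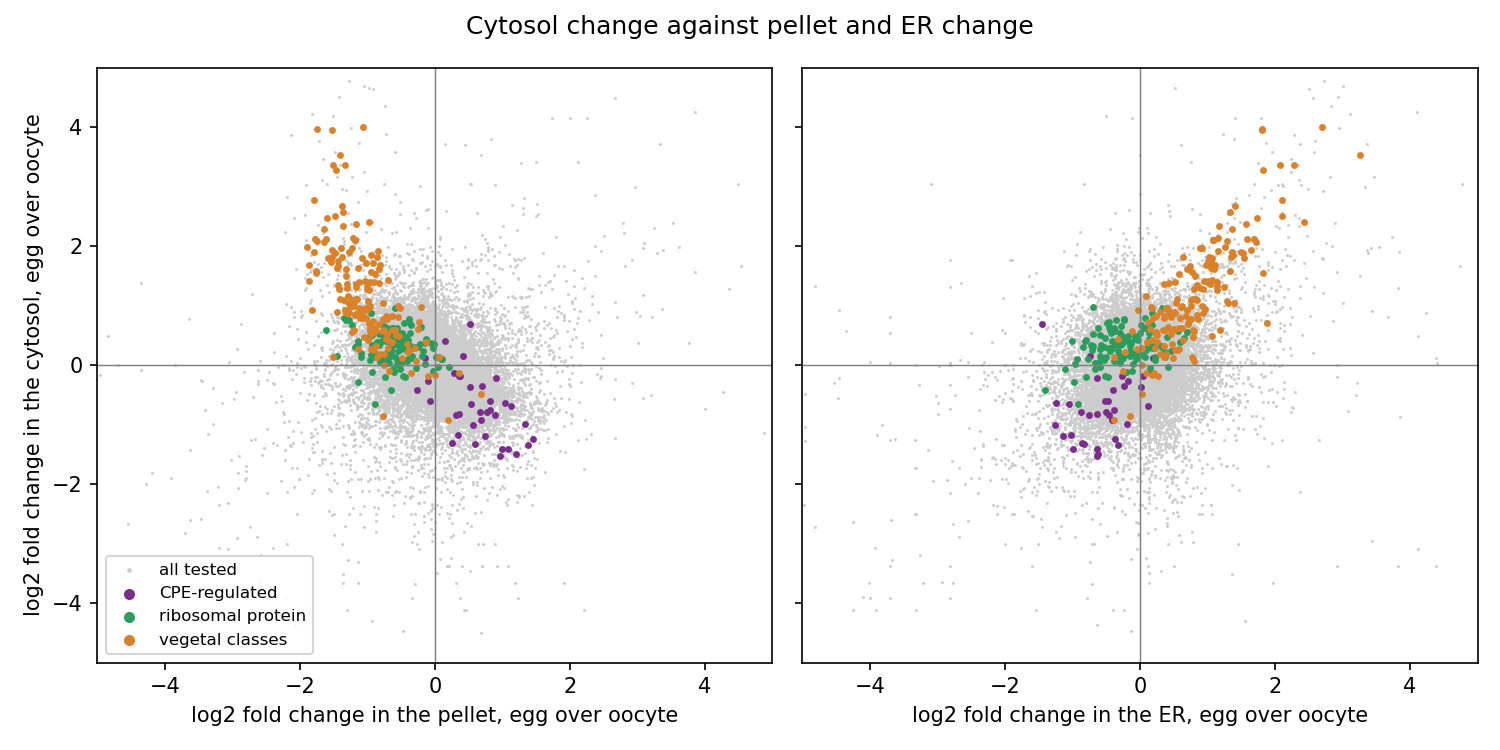
Log2 fold change in the cytosol (vertical) against that in the pellet (left) and in the ER (right), egg over oocyte, for all transcripts tested (grey), CPE-regulated mRNAs, cytosolic ribosomal protein mRNAs and the deposited vegetal classes. Transcripts beyond 5 on an axis (42) are not drawn. Most vegetal transcripts lie at the upper left of the pellet panel and most CPE-regulated ones at its lower right, relative to the typical transcript.

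By gain in CPM, the 10 transcripts with the largest differences were all lower in the egg pellet (21.4% of all transcripts were). In the ER 5 were higher (12.4% of all) and 4 lower (16.1% of all). Beside naga.S, the RNA helicase mov10.L had 274, 281 and 293 CPM in egg cytosol and 61.8, 55.4 and 56.1 CPM in oocyte cytosol (log2 2.29 ± 0.10). Other members were the ribonucleotide reductase subunit rrm1.S at 0.64 ± 0.08, the acyl-CoA synthetase acsbg2.L at 1.49 ± 0.08, the ubiquitin ligase march7.S at 1.07 ± 0.07 and the elongation factor eef2.1.S at 0.93 ± 0.06. In all of these the egg libraries lay above the oocyte libraries, as for 6199 of all 25938 transcripts.

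Housekeeping mRNAs gained modestly in egg cytosol. Oxidative phosphorylation subunits encoded in the nucleus had 86 of 123 higher (69.9%) and 5 lower (4.07%), against 18.4% and 18.6% of all. Their median was 0.444. Cytosolic ribosomal proteins had 78 of 124 higher (62.9%) and 3 lower (2.42%), with a median of 0.317. Glycolytic enzymes had 21 of 35 higher (60%) and 2 lower (5.71%), with a median of 0.398. Proteasome subunits had 31 of 69 higher (44.9%) and 7 lower (10.1%), with a median of 0.169. In the ER 5 of the 123 oxidative phosphorylation transcripts were higher and 55 lower, and 16 of the 124 ribosomal protein transcripts were higher and 58 lower, against 12.4% and 16.1% of all transcripts. In the pellet 6 and 1 were higher and 78 and 110 lower, against 22.3% and 21.4% of all. The cytosol change exceeded the ER change for 88 and 81 of them (14.7% of all) and the pellet change for 101 and 111 (23.4% of all). In the authors' deposited proportions, ribosomal protein mRNAs averaged 65.7 ± 3.29% in egg cytosol and 41.2 ± 5.12% in oocyte cytosol (SD, n = 3 each). Mitochondrial ribosomal proteins had 31 of 98 higher and 12 lower, with a median of 0.0547.

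Single members show the size of these gains. The cytochrome oxidase subunit cox4i2.S had 122, 135 and 119 CPM in egg cytosol and 50.3, 49.1 and 45.6 CPM in oocyte cytosol (log2 1.38 ± 0.08), and the complex I subunit ndufs1.L 47.5, 45.6 and 49.6 CPM in egg cytosol and 22.3, 22.7 and 21.6 CPM in oocyte cytosol (log2 1.1 ± 0.06). Ribosomal protein mRNA rpl5.S was at 0.95 ± 0.08 and rpl21.L at 0.87 ± 0.09, whereas rps10 was at -0.65 ± 0.07. Phosphoglycerate mutase was the extreme of glycolysis, with 54.5, 55.7 and 53.8 CPM in egg cytosol and 14.9, 12.9 and 15.7 CPM in oocyte cytosol for pgam1.S (log2 1.92 ± 0.07) and 1.79 ± 0.11 for pgam1.L, and both carry the deposited vegetal class. The proteasome ATPase psmc3.S was at 1.19 ± 0.07 and the base subunit psmd1.L at 0.96 ± 0.06. Among the proteasome members that fell were the activators psme4.L at -1.02 ± 0.07 and psme3.L at -0.41 ± 0.05.

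**Figure D4:**
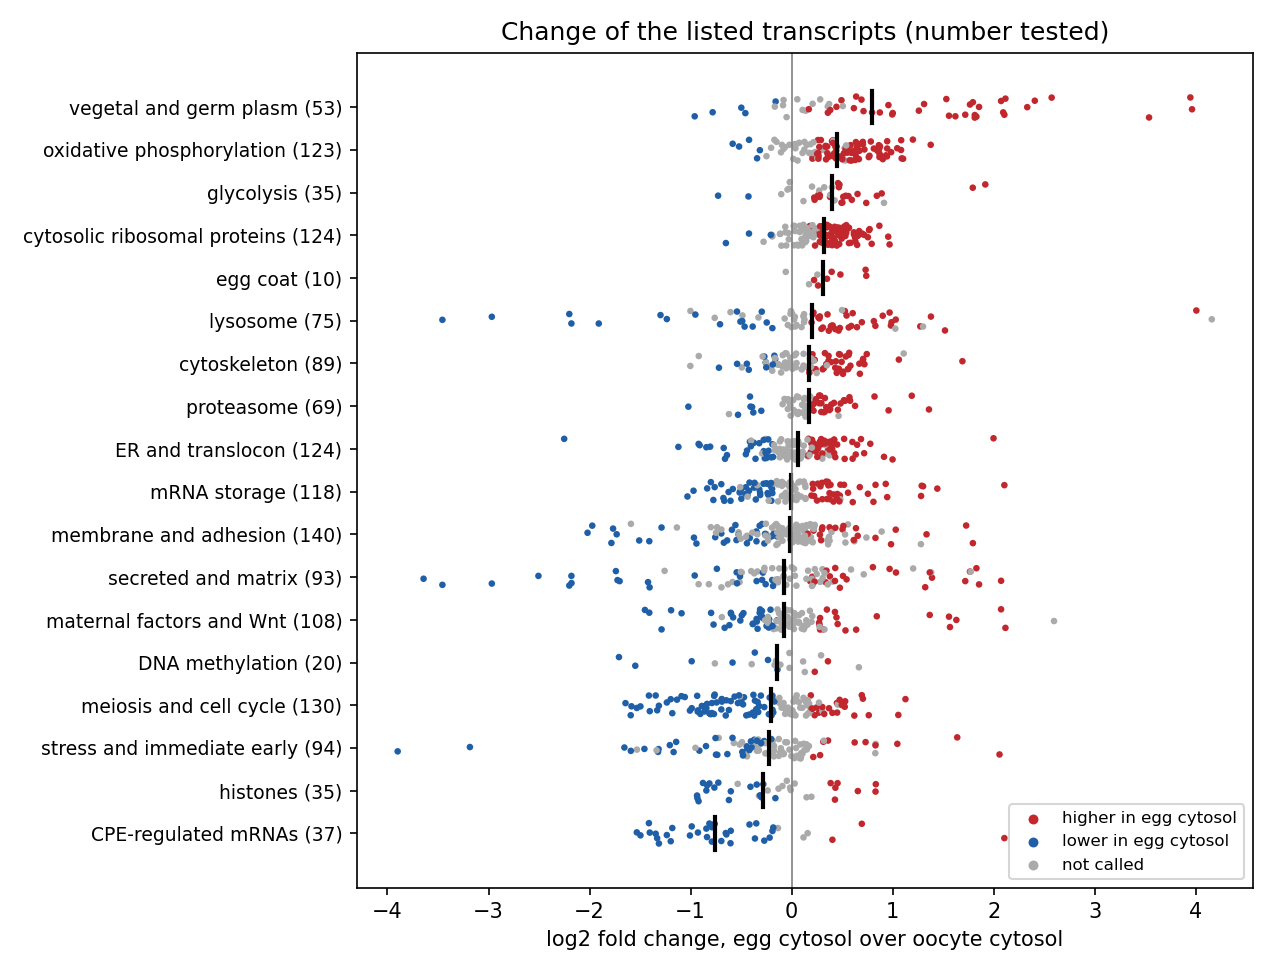
Log2 fold change of egg over oocyte cytosol for the transcripts of 18 lists, with the number tested in brackets. Each point is a transcript, red when called higher, blue when called lower and grey when not called, and black bars are medians. Medians run from -0.762 for CPE-regulated mRNAs to 0.795 for vegetal and germ plasm RNAs, and on attomolar values the median of CPE-regulated mRNAs, at -0.445, is the only one below 0.

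Transcription factor and Wnt pathway mRNAs had 18 of 108 higher (16.7%) and 37 lower (34.3%), against 18.4% and 18.6% of all. Their median of -0.0812 turns to 0.178 with spike-in scaling (12 higher and 5 lower) and 0.37 on attomolar values (16 and 3). The neural and ectodermal factor sox3.S had 117, 96.7 and 119.7 CPM in egg cytosol and 316, 292 and 307 CPM in oocyte cytosol (log2 -1.45 ± 0.10), with 1.46 in the pellet, and sox3.L changed by -1.19 ± 0.08. Beta-catenin, the effector of maternal Wnt signalling, fell in both homeologs, with -1.09 ± 0.09 for ctnnb1.S and -0.66 ± 0.06 for ctnnb1.L. The Wnt receptor mRNA fzd7.L had 68.4, 66.4 and 63.7 CPM in egg cytosol and 172, 187 and 168 CPM in oocyte cytosol (log2 -1.41 ± 0.06), but 0.17 in the ER. Members that rose include e2f1.L, a cell cycle transcription factor of the deposited vegetal class, at 1.63 ± 0.06, and the chromatin protein hmga2.S at 1.57 ± 0.08. The epithelial factor grhl1, on the list of animal pole RNAs, was higher at 0.60 ± 0.06 for grhl1.L and 0.62 ± 0.08 for grhl1.S. That list had 6 of 24 higher (25%) and 8 lower (33.3%). Its median of -0.101 turns to 0.154 with spike-in scaling (4 higher and 3 lower) and 0.367 on attomolar values (7 and 2).

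The machinery that stores and decays maternal mRNA had 37 of 118 transcripts higher (31.4%) and 36 lower (30.5%), against 18.4% and 18.6% of all. Its median of -0.0113 turns to 0.242 with spike-in scaling. That scaling gave 21 higher and 2 lower, and attomolar values 27 and 0. The mRNAs of the stress granule proteins TIA1 and G3BP1 rose, with tia1.L at 73.4, 72.1 and 77.5 CPM in egg cytosol and 26.6, 28.3 and 27.3 CPM in oocyte cytosol (log2 1.44 ± 0.06) and g3bp1.S at 1.28 ± 0.07. The scaffold of the CCR4-NOT deadenylase, cnot1.L, was at 1.29 ± 0.07, and the poly(A) polymerase papola.L at 1.30 ± 0.08. The deadenylase PAN2 fell in both homeologs, with pan2.S at -0.97 ± 0.08 and pan2.L at -0.78 ± 0.07. The mRNAs of the CPE-binding protein CPEB1 had small changes called in opposite directions. The S homeolog cpeb1.S was higher at 0.21 ± 0.08 and cpeb1.L was lower at -0.32 ± 0.09, but cpeb1.L turns to 0.07 on attomolar values. On the list of mRNAs known from Xenopus for deadenylation at maturation, 13 of 23 were higher and 6 lower, with a median of 0.306. Within it rpl5.S and the elongation factor eef1a1o.S rose, the second of these by 0.72 ± 0.07, and ornithine decarboxylase fell, with odc1.S at -1.14 ± 0.11 and odc1.L at -0.50 ± 0.08.

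Replication licensing factors had 24 of 63 higher (38.1%) and 25 lower (39.7%), against 18.4% and 18.6% of all. They had 10 and 5 with spike-in scaling and 14 and 2 on attomolar values. The helicase subunit mcm2.L had 188, 208 and 194 CPM in egg cytosol and 85.3, 74.2 and 79.5 CPM in oocyte cytosol (log2 1.30 ± 0.07), and the origin protein orc2.S was at 1.22 ± 0.08. The helicase loader cdc6.S went down, with 102, 85.9 and 107 CPM in egg cytosol and 273, 265 and 279 CPM in oocyte cytosol (log2 -1.47 ± 0.10), and orc1.L was at -1.39 ± 0.10. Nuclear pore and transport mRNAs had 40 of 97 higher (41.2%) and 26 lower (26.8%), but 23 and 8 with spike-in scaling and 28 and 3 on attomolar values. There nup93.L, an inner ring nucleoporin, was at 1.13 ± 0.06 and the importin tnpo3.S at 1.26 ± 0.07, while the membrane nucleoporin ndc1.S was at -1.64 ± 0.06 and the lamin lmnb1.L at -1.19 ± 0.07. The cytoskeleton list had 37 of 89 higher and 10 lower, with arpc2.L, an Arp2/3 subunit, at 1.69 ± 0.13 and the microtubule protein map4.S at 1.06 ± 0.09. The ER change of map4.S was -1.41 ± 0.09.

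Of 10 egg coat transcripts 7 were higher (70%) and 0 lower, against 18.4% and 18.6% of all. Among them zpd.L was at 0.73 ± 0.06 and zp4.2.L at 0.74 ± 0.08. The calcium-activated chloride channel ano1.L, known for the fast block to polyspermy in Xenopus, had 113, 117 and 120.1 CPM in egg cytosol and 28.2, 16.7 and 25.8 CPM in oocyte cytosol (log2 2.31 ± 0.12), with 0.10 in the ER, which was not called. The IP3 receptor mRNA itpr1.S, whose protein releases calcium at fertilization, was at 1.00 ± 0.08. The ion channel list that holds both had 7 of 32 higher (21.9%) and 8 lower (25%), among the lower trpm7.L at -0.73 ± 0.06. Its median of -0.115 turns to 0.155 with spike-in scaling (6 higher and 1 lower) and 0.368 on attomolar values (7 and 1). The plasma membrane calcium pump gene atp2b1 was uneven over its transcripts: the short atp2b1.L model gene41294 was at -2.02 ± 0.10, the more abundant gene23757 at -0.079 ± 0.06 and gene40385 at 0.21 ± 0.11, both not called, and atp2b1.S was higher at 0.47 ± 0.05. The steroid enzyme mRNA cyp17a1.L had 20.2, 19.6 and 22.1 CPM in egg cytosol and 54.8, 56.3 and 57.9 CPM in oocyte cytosol (log2 -1.44 ± 0.08), beside 0.73 ± 0.07 in the ER. The list of steroid synthesis and progesterone response that holds it had 7 of 29 higher (24.1%) and 3 lower (10.3%), with a median of 0.0208.

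Opposite changes in cytosol and pellet were also frequent beyond the named genes. Of the 580 transcripts at least 2-fold higher in egg cytosol, 362 (62.4%) were lower in the pellet and 43 (7.41%) higher, against 21.4% and 22.3% of all. At once lower in the pellet and higher in the ER were 211 (36.4%), a combination seen in 5.05% of all transcripts. Of the 670 at least 2-fold lower, 311 (46.4%) were higher in the pellet and 114 (17%) lower, against 22.3% and 21.4% of all. The interaction test called the cytosol change above the pellet change for 504 of the 580 (23.4% of all), and below it for 518 of the 670 (23.7% of all). Both sets were chosen by the cytosol change that this test contains, so its counts follow in part from the choice. Over all transcripts 12231 differed between cytosol and pellet change (47.2%) and 7049 between cytosol and ER change (27.2%). These counts are relative too: with spike-in scaling the cytosol change was above the ER change for 14862 and below it for 128, and above the pellet change for 3205 and below it for 1465.

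Where an RNA sat in the oocyte went with its cytosol change. Transcripts with a mean of at least 1 CPM were ordered by their oocyte pellet over oocyte ER log2 ratio and divided into deciles of 1979. The oocyte pellet and ER libraries are not compared in the cytosol fold change, but they share the fit that gives its calls. In the decile most biased to the pellet, with a median ratio of 1.03, the median cytosol change was 0.329, and 51.2% of transcripts were higher and 7.07% lower in egg cytosol. In the decile most biased to the ER, with a median ratio of -0.883, it was -0.0256, with 23.1% higher and 26.2% lower. Deciles 2 to 5 had the lowest medians, -0.101 to -0.0688. Apart from that of decile 10, each median lies closer to 0 than the offset of 0.26 that spike-in scaling brings.

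**Figure D5:**
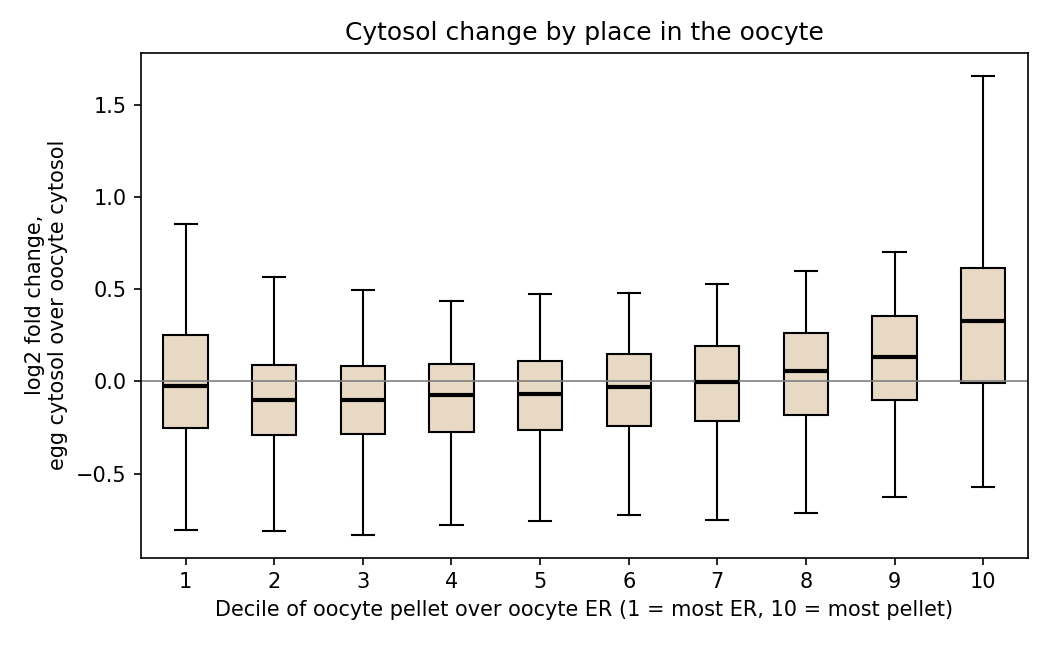
Cytosol change by decile of oocyte pellet over oocyte ER, each of 1979 transcripts. Boxes give the median and quartiles of the egg over oocyte log2 fold change in the cytosol and whiskers the 5 and 95 percentiles. The median is 0.329 in decile 10 and lies between -0.101 and 0.133 in the other deciles, relative to the typical transcript, where the negative ones are smaller than the 0.26 offset of spike-in scaling.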

How the data were processed

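RNA was measured in 18 libraries, of cytosol, ER and pellet from 4 eggs or oocytes each, sequenced for 101 cycles from each end on one lane. Per the labels, 5 spike-in RNAs, among them egfp, firefly and renilla, were added to each fraction, ribosomal RNA was depleted, and a TruSeq stranded mRNA kit was used, with no statement on poly(A) selection. Per the submitters' processing notes, reads were handled with bcl2fastq 2.20 and kallisto 0.46.2. The transcript set and genome build are not given in the sources used here. The authors deposited estimated counts and TPM per library, and a table of the attomolar signal that they derived from TPM by regression on the spike-ins, with ratios and q-values of their own. That table also holds an animal-vegetal class, in a column headed with the citation Sindelka et al. The authors also deposited the percent of each transcript's total found in each fraction. Of the series tables, 28 columns of other values were not used.

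Estimated counts of 51032 transcripts were rounded, since they need not be whole, and 5 spike-ins and 1 unnamed row were left out. Names came from the deposited table. Multi-mapping reads of L and S homeologs and of the 2544 transcripts that share a name are divided by estimate, so those values are uncertain. One edgeR 4.0.16 quasi-likelihood fit (R 4.3.3) covered all 18 libraries, with TMM factors, filterByExpr by group and a Benjamini-Hochberg adjusted p under 0.05 as the threshold. Every adjusted p given for a gene is from this fit. CPM values use TMM library sizes. Alternatives used limma 3.58.1 and DESeq2 1.42.0, other scalings, filters and left-out libraries. The tests were also run on simulated counts with a small set of changed transcripts and no shift of scale. That run does not bear on the choice of scale.

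Members and gene lists were chosen with earlier results of these data known. Named were the 12 highest and 12 lowest called fold changes at 10 CPM or more without overlap, for each list the called members with the lowest adjusted p (2 each way), a fixed panel, and the 10 largest CPM gains and losses, of which some are not reported here. Outside this rule ier2.L, cldn12.L, cldn10.L, slbp.L, mcoln1.L, lamp1.L, ccnb1.2.L, ccnb1.2.S, cdk2.L, cdk2.S, ccne1.L, ccne1.S, ccnb5.L, hat1.S, cldn5.L, ctsa.L, ctsc.L, ctsd.S, kit.L, col4a1.L, atp2b1.S, atp2b1.L (gene23757 and gene40385), map2k1.L, ctnnb1.L, ctnnb1.S, cnot1.L and papola.L were named after their values were seen. Of 30 lists 29 matched tested transcripts. Deviations of same-numbered libraries correlated between the cytosol and the other fractions of a stage at r = 0.101 to 0.36, so replicate numbers may pair fractions within a stage.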

Additional observations from a re-analysis of the deposited data

Results flagged for a closer look

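The change from oocyte to egg differed between fractions for many transcripts by the interaction test of the 18-library edgeR fit, which is what marks the following counts. The cytosol change differed from the pellet change for 12231 of 25938 transcripts and from the ER change for 7049. Called in opposite directions in their own tests were 2834 transcripts higher in egg cytosol and lower in egg pellet, and 3144 lower in egg cytosol and higher in egg pellet. Between cytosol and ER, 972 were higher in egg cytosol and lower in egg ER, and 804 were lower in egg cytosol and higher in egg ER. These opposite pairs rest on the 2 separate calls and on a call in the interaction test.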

How the results depend on the processing

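The scale moved the counts most. Against 4780 transcripts higher, there were 2629 with spike-in scaling and 1600 without the spike-in egfp. Against 4818 lower, there were 636 with spike-in scaling, 660 without egfp, 328 by limma on attomolar values, and 3173 and 3110 by limma on log2(TPM + 1) and log2(TPM + 0.1). For the cytosol change above the ER change (3823) the same 5 settings gave 14862, 15561, 15495, 7023 and 7020, and below it (3226) 128, 115, 92, 1171 and 1180. For the cytosol change above the pellet change (6081) the first 3 settings gave 3205, 1651 and 3546, and below it (6150) 1465, 2024 and 676. Lists with more members higher than lower numbered 17, against 28 on attomolar values. No called transcript was called in the opposite direction under any alternative of the cytosol test, and the share of its 9598 calls that was kept ran from 22.8% (spike-in scaling without egfp) to 99.6%. Among named genes the sign turned on attomolar values for hk1.L (0.17), srd5a3.L (0.060), zar1.L (0.13), mos.L (0.086), tubgcp3.L (0.19), rps2.L (0.028), sdhb.S (0.12), cpeb1.L (0.068) and wee1.S (0.28), and with spike-in scaling for wee1.S (0.073). Apart from the scale offsets, the cause was not tested.

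Leaving out each library in turn gave 4105 to 4347 transcripts higher and 4188 to 4424 lower, and a ratio of summed attomolar values of 1.207 to 1.322. It gave 3352 to 3732 transcripts with the cytosol change above the ER change and 2755 to 3164 below it, and 5737 to 6050 above the pellet change and 5850 to 6071 below it. Deviations of same-numbered egg and oocyte cytosol libraries correlated at r = -0.0102, 0.0692 and 0.0557. Differently numbered ones correlated at -0.0927 to 0.0553. With 3 libraries a group, these values cannot tell whether same-numbered libraries share a frog or culture. With the replicate block 5001 were higher and 5088 lower. With a replicate block for each stage and number, the cytosol change was above the ER change for 4337 and below for 3721, and above the pellet change for 6474 and below for 6560. That block turned 8 further ER comparisons of named genes into calls, among them wee1.S (-0.24), rps10 (0.27) and txnip.L (0.35), and 2 pellet comparisons, txnip.L (-0.30) and aurka.L (-0.25), and changed no other call of a named gene.

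The spike-ins limit any statement on absolute amounts: egfp dominated them and firefly and renilla had 3 to 53 counts a library. With 3 libraries a group, an exact test of a single value cannot go below p = 0.1.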

Other observations

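Xenopus laevis is an allotetraploid whose genes often exist as an L and an S homeolog. For 3731 pairs with both members at 1 CPM or more, the cytosol changes of the pair correlated at r = 0.589 across pairs, which are not independent replicates and share their libraries and some reads. Both members were higher in 528 pairs and both lower in 604, 1 member alone was called in 1374, and neither in 1065. In 160 pairs the calls were opposite. The transcription elongation factor ctr9 stood at -1.19 for L and 0.83 for S, ifrd2 at 1.78 for L and -0.63 for S, and the thioredoxin-fold ER protein txndc12 at 0.73 for L and -1.15 for S. These examples were chosen after their values were seen.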
